A study of Mus musculus with 15 samples.

Results

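Immunity-related GTPases (IRG proteins) are a family of interferon-induced GTPases that mouse cells use against intracellular pathogens, and 6 of the 24891 genes kept from the expression table are described here. They were chosen by name: IGTP (also called Irgm3), IRGM1 and IRGM2, which are regulators of the family, and IIGP1 (Irga6), TGTP1 and TGTP2 (both Irgb6), which are effectors. All 6 were found in the table, and all 6 were above 1 scaled FPKM in every library, so none entered a comparison through its high group alone. Scaled FPKM is the deposited FPKM (fragments per kilobase of transcript and per unit of library depth), divided by a factor for each library, and it allows levels to be compared between genes.

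RNA was sequenced from tumors of 105K cells, a Tsc2-deficient (Tsc2-/-) renal tumor line that lacks an inhibitor of the growth kinase complex mTORC1. Cells stably carrying a non-targeting shRNA (sh-NC) or 1 of 2 shRNAs against B7-H3, an immune checkpoint protein encoded by CD276, were grown under the skin of wild-type C57BL/6J mice, which were male and 6 weeks old at injection. The 15 libraries fall into 5 groups of 3. Whole (bulk) tumors were sequenced for the control and for sh-B7-H3 (1), and tumor cells sorted from tumors were sequenced for the control and for each of the shRNAs. Every group shares the Tsc2 deficiency and the wild-type host. Sorted cells are those that remained after magnetic depletion of non-tumor cells, so host cells can remain among them. The study's methods speak of biological samples. Whether each library came from a separate mouse is not given in the sources used here, and p-values measure the spread between these libraries.

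The targeted gene was examined first. CD276 stood at 34.0, 20 and 17.3 scaled FPKM in sorted sh-NC cells, at 7.29, 14.0 and 11.5 in sorted cells labelled sh-B7-H3 (1), and at 23.3, 25.4 and 25.7 in sorted cells labelled sh-B7-H3 (2). In bulk tumors it was 20.8, 23.3 and 23.5 with sh-NC, and 22.3, 17.8 and 24.4 in those labelled sh-B7-H3 (1). CD276 RNA was thus lower than in every sh-NC library in the sorted sh-B7-H3 (1) group, with a log2 difference of -1.04 ± 0.29 (SE, n = 3 and 3, limma adjusted p = 0.0547), and it was not lower in sorted sh-B7-H3 (2), at 0.12 ± 0.23 (adjusted p = 0.775), or in bulk tumors, at -0.07 ± 0.13 (adjusted p = 0.709). The RNA therefore does not check the labels of the sorted sh-B7-H3 (2) and bulk sh-B7-H3 (1) libraries, and knockdown below means the label.

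Some libraries stood apart. MIR6236, a short RNA gene, made up between 6.01% and 79.6% of all FPKM in a given library, and the scaling factors ran from 0.65 to 1.18. Sorted sh-B7-H3 (2) replicate 1 held host-cell RNA: the sum over 8 leukocyte markers was 229 scaled FPKM there, while the other 5 sorted knockdown libraries ranged from 17.9 to 26.4 and bulk tumors from 196 to 382. Results that rest on that library are given with and without it. Of 6 epithelial and kidney markers, the sum was 758 to 932 scaled FPKM in sorted controls, 1062 to 1322 in sorted knockdown cells and 665 to 993 in bulk tumors. The bulk range overlaps that of sorted controls, so the sum does not check the sorting. In sorted knockdown cells 4 of the 6 were higher. Mean EPCAM was 21.6 in sorted controls, then 148 and 187 with sh-B7-H3 (1) and (2). CDH1 (275.7, then 211.9 and 180.6) and PAX8 (27.7, then 20.2 and 21.6) went the other way.

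The IRG regulators sit on the cell's own membranes and keep the effectors in an inactive state, and the effectors collect on the vacuole of parasites such as Toxoplasma, where they help to break it open. The ATG8 conjugation system of autophagy guides them to the right membrane, and guanylate-binding proteins (GBPs) follow. In most cell types the RNA is scarce until interferon arrives: IFN-γ acts through promoter letters called GAS elements and through IRF1, which binds interferon-stimulated response elements (ISREs), and type I interferons act through the latter. The family is therefore a common readout of interferon signaling in mouse cells, including cells that are not immune cells.

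The promoters of the 5 members that could be searched carry such letters close to the start of transcription. RefSeq promoter windows (GRCm38.p6, 250 bases before to 50 after the start) were available for 5 of the 6 genes, and all 5 lie on chromosome 11. IIGP1 had no window and was not searched. Thirty-base pieces around the matches are printed 5′ to 3′ on the strand of the gene because they show what the members share, with capitals marking ISRE-like letters (GAAA, any 2 bases, GAAA) and GAS-like letters (TTC, any 3 bases, GAA), which were searched on both strands.
IGTP (chr11:58199507-58199536, plus strand): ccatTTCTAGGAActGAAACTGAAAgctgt
IRGM2 (chr11:58214898-58214927, plus strand): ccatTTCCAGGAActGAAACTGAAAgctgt
TGTP1 (chr11:48992309-48992338, minus strand): ccatTTCCAGGAAtcGAAACTGAAAcctac
TGTP2 (chr11:49064268-49064297, minus strand): ccatTTCCAGGAAtcGAAACCGAAAcctac
IRGM1 (chr11:48871428-48871457, minus strand): gtttcaaGAAATAGAAACCGAAActgattc

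In 4 of the 5 windows a GAS-like and an ISRE-like match lay side by side, and IRGM1 had 2 overlapping ISRE-like matches and no GAS-like match. The ISRE-like match began 34 bases before the start in IGTP, 64 in IRGM2, 77 in TGTP1 and 70 in TGTP2, and the first of IRGM1 began 30 bases before it. Of 32851 promoter entries of the same length, 3.44% held the ISRE-like letters, 8.3% the GAS-like letters and 0.454% both. The 22 bases that end with the ISRE-like match nearest the start were compared. IGTP and IRGM2 were identical at 21, as were TGTP1 and TGTP2, and IRGM1 matched the others at 17 to 19. The fixed letters of that match, GAAA and GAAA, are the same in every pair by the choice of these bases. Among the GBP genes, 5 of 6 promoter entries held the ISRE-like letters, as did 3 of 6 entries of other IRG genes and none of 7 entries of ATG8 conjugation genes. GAS-like letters were in 2 of 6, 2 of 6 and 2 of 7 of these entries. A match describes the letters and is not evidence of binding in these cells.

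The genes lie in 2 clusters on chromosome 11 of GRCm38.p6. IRGM1 (48865245 to 48871420), TGTP1 (48985329 to 48992246) and TGTP2 (49057196 to 49064212) form the first, and IGTP (58199556 to 58207592) and IRGM2 (58214977 to 58222783) the second, while IIGP1 lies on chromosome 18. TGTP1 and TGTP2 are near-identical copies: of the 75-base stretches of their annotated transcripts, the length of the reads, 22.8% of TGTP1 and 18.6% of TGTP2 occur in that gene alone. How reads that fit both were counted is not given in the sources used here, so their separate values are uncertain, and their sum is given where it changes a call. The share was 100% for IRGM1 and IIGP1, 92.2% for IGTP and 95.2% for IRGM2, and the exons of the last pair overlap by 162 bases on the same strand.

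The members were examined first in sorted tumor cells, to ask how tumor cells recovered from B7-H3 knockdown tumors differ from those of control tumors. All 6 were higher in each knockdown library than in any sh-NC library, under both shRNAs, a separation that 13.6% of 11424 genes tested also showed. The rise was largest for the effector pair TGTP1 and TGTP2 and smallest for IRGM1 and IRGM2, and IRGM1 was the most abundant member in control cells.

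IGTP, an IRGM-type regulator found on the endoplasmic reticulum and lipid droplets, measured 14.3, 10.9 and 13.3 scaled FPKM in sorted sh-NC cells. It measured 199, 91.9 and 121 in cells labelled sh-B7-H3 (1) and 130, 99.8 and 105 in cells labelled sh-B7-H3 (2). Its lowest knockdown value was thus far above its highest control value. The log2 difference from sh-NC was 3.25 ± 0.27 (SE, n = 3 and 3, adjusted p = 0.00017) for the first shRNA and 3.02 ± 0.16 (adjusted p = 5.5e-05) for the second.

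IRGM1, a regulator that also acts at lysosomes and the Golgi, measured 53.3, 36.7 and 39.2 in sorted sh-NC cells, against 317, 167 and 199 with sh-B7-H3 (1) and 238, 188 and 198 with sh-B7-H3 (2). No knockdown value overlapped the controls. The log2 differences were 2.34 ± 0.26 (adjusted p = 0.000603) and 2.26 ± 0.18 (adjusted p = 0.000151). IRGM2, the third regulator and the least abundant member, measured 12.5, 7.65 and 9.47 in controls, 79.3, 45.3 and 54.3 with sh-B7-H3 (1), and 48.5, 40.2 and 41.6 with sh-B7-H3 (2). It rose by 2.46 ± 0.24 (adjusted p = 0.00034) and 2.05 ± 0.18 (adjusted p = 0.000219), close to the values of IRGM1.

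IIGP1, an effector that coats the Toxoplasma vacuole, measured 40.2, 30.6 and 30.9 in sorted sh-NC cells, 505, 235 and 269 with sh-B7-H3 (1), and 256, 184 and 162 with sh-B7-H3 (2). In every library labelled sh-B7-H3 (2) except replicate 1 it was below every library labelled sh-B7-H3 (1). It rose by 3.20 ± 0.28 (adjusted p = 0.000226) and 2.51 ± 0.20 (adjusted p = 0.000157).

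TGTP1, an effector that binds the membrane lipids of the parasite vacuole, measured 18.6, 15.1 and 18.9 in controls, 448, 178 and 214 with sh-B7-H3 (1), and 257, 159 and 155 with sh-B7-H3 (2). Its copy TGTP2 followed at 17.7, 13.5 and 18.0, then 389, 156 and 189, and then 222, 135 and 132. Replicate 1 was the highest of its group in both shRNA groups for every member. The log2 differences of TGTP1 were 3.81 ± 0.32 (adjusted p = 0.00018), place 13 among 11163 genes ranked from the highest, and 3.33 ± 0.21 (adjusted p = 6.97e-05). Those of TGTP2 were 3.72 ± 0.32 (adjusted p = 2e-04) and 3.21 ± 0.23 (adjusted p = 9.39e-05).

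**Figure D1:**
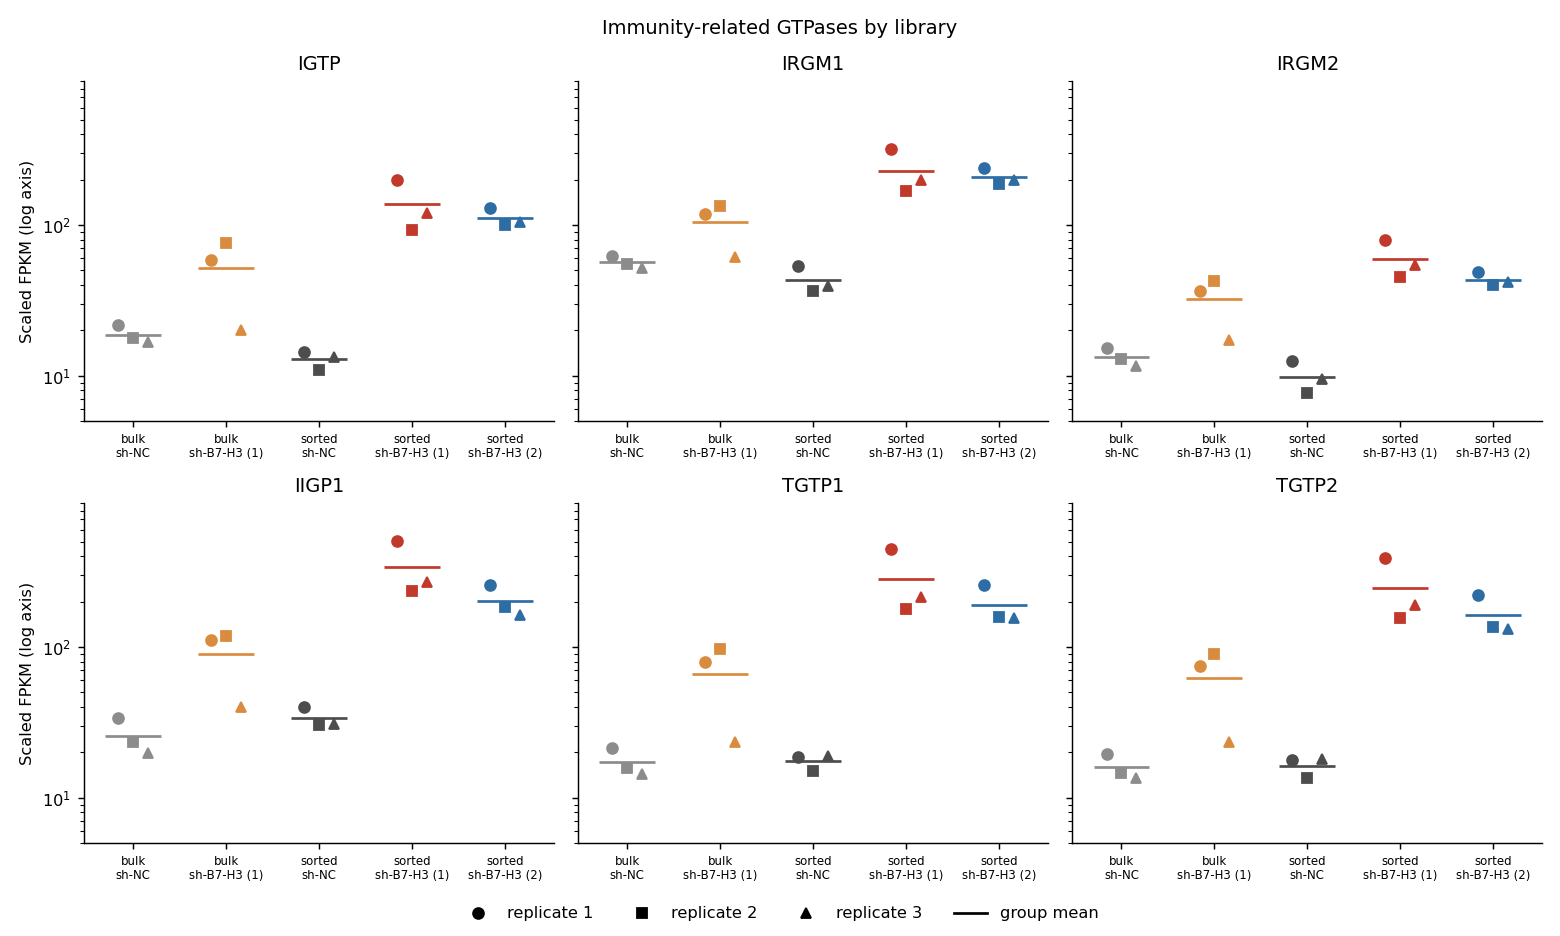
Scaled FPKM of each of the 6 immunity-related GTPases (log axis) in the 15 libraries, by group, with 1 symbol per replicate and a line at the group mean. All sorted knockdown libraries lie above all sorted sh-NC libraries, and bulk sh-B7-H3 (1) replicate 3 lies near the bulk controls.

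With either shRNA, 6 of 6 members passed the test and were higher, against 9.03% of all 11163 genes tested that were called higher for sh-B7-H3 (1), or 13.4% called in either direction, and 11.7% of 11243 genes, or 19.1% in either direction, for sh-B7-H3 (2). These 2 comparisons share the sh-NC libraries. With both shRNAs as 1 group of 6 against 3, all 6 were again higher (12.6% of 11424 genes were called higher, 7.92% lower and 20.5% in either direction), by 2.26 for IRGM2, 2.30 for IRGM1, 2.86 for IIGP1, 3.13 for IGTP, 3.46 for TGTP2 and 3.57 for TGTP1 on the log2 scale. The median of the 6 was 2.99, and that of all genes tested was 0.01. This fit treats the 6 libraries as independent, although same-numbered libraries of the shRNA groups deviated together. Without sorted sh-B7-H3 (2) replicate 1, the library rich in host-cell RNA, the log2 differences were 2.27 for IRGM2, 2.27 for IRGM1, 2.85 for IIGP1, 3.11 for IGTP, 3.42 for TGTP2 and 3.52 for TGTP1, and all 6 were called (10.9% of genes were called higher there). Each of the 18 sorted differences from sh-NC stayed past the threshold in every alternative tried.

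Markers of host cells moved with the members in part. The sum of 8 macrophage markers was 36.2 to 50.1 scaled FPKM in sorted sh-NC cells and 62.9 to 98.1 in the 5 knockdown libraries without sorted sh-B7-H3 (2) replicate 1, which held 782. Only CD68 and CSF1R were above every control in all 5. CD68 was at least 50.9 there and at most 33.34 in controls, and CSF1R at least 4.758 and at most 1.297. LYZ2, C1QA and C1QB went the other way in sh-B7-H3 (2) replicates 2 and 3, below every control. LYZ2, for example, was 1.349 and 1.371 there against 2.109 to 5.997. The 8 T-cell markers summed to 0.918 to 1.25 in sorted sh-NC cells and 1.67 to 2.40 in the same 5 knockdown libraries, with 29.1 in sh-B7-H3 (2) replicate 1. Apart from that replicate, most of the T-cell sum was LCK and THY1. CD3E and CD4 were listed at 0 in all 3 control libraries. CD4 was also at 0 in 1 library of each sorted shRNA group, and CD3E in 1 of sh-B7-H3 (2). CD3D went the other way, at 0 in 1 control library and in 2 of each sorted shRNA group. The 5 cytotoxic markers were listed at 0 in the controls and summed to 0.0682 to 0.336 in the 5 knockdown libraries. Fibroblast markers (6) summed to 31.2 to 77.5 in controls, 49.0 to 81.5 with sh-B7-H3 (1) and 114 to 152 with sh-B7-H3 (2). The sum of the 8 leukocyte markers did not separate the groups, at 22.4 to 26.4 in controls and 17.9 to 26.4 in those 5. Most of it was ARHGDIB (9.26 to 15.7 in controls) and CYTIP (8.14 to 8.79). The other leukocyte markers were low, with higher means with sh-B7-H3 (1) than in controls. CD53, for example, was 1.48 to 2.28 there against 1.06 to 1.18 in controls. In sh-B7-H3 (2) replicates 2 and 3 it was lower, at 0.760 and 0.519. All 6 members together summed to 115 to 157 in the controls and 793 to 1937 in the knockdown libraries. The bulk sh-NC tumors held leukocyte sums of 208 to 297 with member sums of 128 to 175. The part of the remaining host cells in the sorted differences was not tested.

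**Figure D2:**
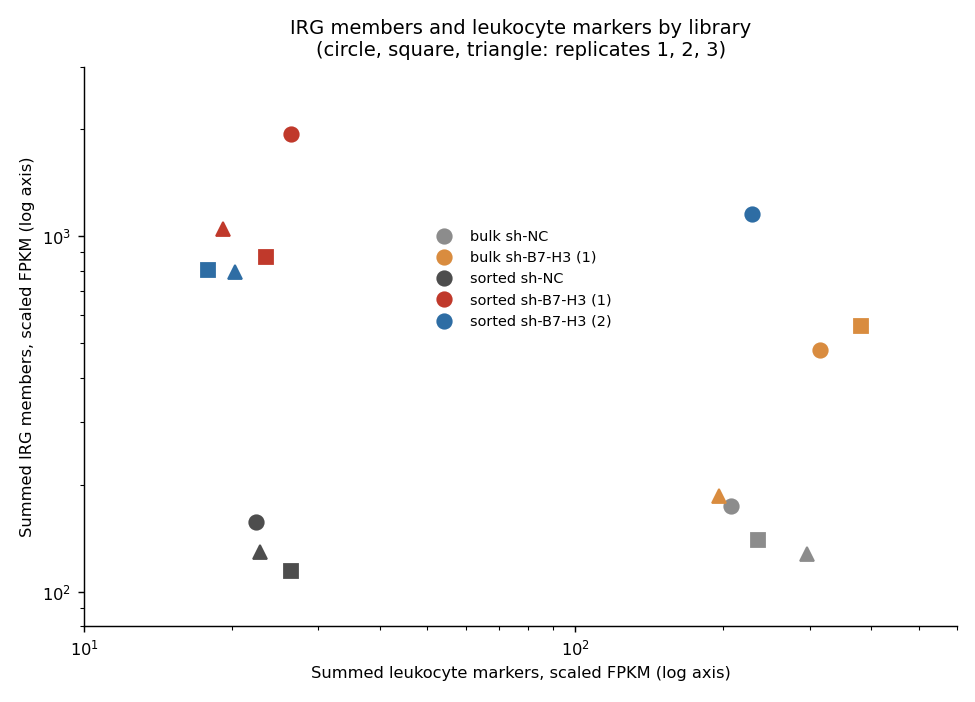
Summed scaled FPKM of the 6 members (y, log axis) against summed scaled FPKM of 8 leukocyte markers (x, log axis), with 1 point per library, color for the group and shape for the replicate. The 5 sorted knockdown libraries other than sh-B7-H3 (2) replicate 1 combine low leukocyte sums (17.9 to 26.4) with high member sums (793 to 1937), and that replicate stands at 229 on the leukocyte axis. In the sorted libraries other than that replicate, most of the leukocyte sum is ARHGDIB and CYTIP.

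The 2 shRNAs were next compared with each other. Each member had a higher mean in cells labelled sh-B7-H3 (1) than in cells labelled sh-B7-H3 (2), and the groups overlapped for every member. The differences were 0.09 for IRGM1 (95% interval -0.45 to 0.62), 0.23 for IGTP (-0.38 to 0.84), 0.41 for IRGM2 (-0.04 to 0.87), 0.48 for TGTP1 (-0.34 to 1.29), 0.51 for TGTP2 (-0.30 to 1.32) and 0.69 for IIGP1 (0.0016 to 1.38). In limma 0 of 6 passed the adjusted threshold, where 3.4% of 11239 genes did. An unadjusted p under 0.05 was found for 1 of 6, IIGP1, and the share of all genes at that level is not given. In these groups the libraries of a replicate number deviated together. With the replicate number as a block, IIGP1 (adjusted p = 0.0324) and TGTP2 (adjusted p = 0.0489) were called higher with sh-B7-H3 (1). The genes called in all rose from 382 to 1864, or 16.6% of those tested. TGTP1, which shares 74.6% of its 75-base stretches with TGTP2, was not called in any of 13 alternatives (lowest limma adjusted p = 0.0646). The sum of TGTP1 and TGTP2, fitted without the block, was not called either. The TGTP2 call therefore rests on a value that is uncertain. The direction for IGTP and IRGM1 turned without sorted sh-B7-H3 (1) replicate 1, at -0.07 and -0.18, and that for IRGM1 also under quantile normalization, at -0.05.

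Ratios between members within a library do not depend on how libraries are scaled, and they were compared next between sorted knockdown and control cells. In all, 15 pairs were compared by exact two-sided permutation tests, 6 knockdown libraries against 3 controls, where the smallest p the design can give is 0.0119. This comparison was added after the values were seen. It treats the 6 libraries as independent, although same-numbered libraries of the shRNA groups deviated together. With each such pair averaged, 3 values against 3, p cannot go below 0.1, which 14 of the 15 pairs reached, so none could pass. Relative to IRGM1, IGTP was higher by 0.90 on the log2 scale in knockdown cells (exact p = 0.0119, adjusted over the pairs 0.0198), and its ratio in every knockdown library lay above that in every control. The effector TGTP1 gained 1.32 on IRGM1 and 1.27 on IRGM2, and 0.75 on the other effector IIGP1, each with an exact p of 0.0119 and no overlap. The log2 ratio of IRGM1 to IRGM2 was 2.09 ± 0.19 (SD, n = 6) in knockdown cells and 2.13 ± 0.11 (n = 3) in controls (exact p = 0.714). That mean covers groups on either side of the controls, since the ratio was 1.92 ± 0.07 (SD, n = 3) with sh-B7-H3 (1) and 2.26 ± 0.04 with sh-B7-H3 (2), without overlap (exact p = 0.1, the smallest that 3 against 3 can give). Without sorted sh-B7-H3 (2) replicate 1 the gains over IRGM1 were 0.91 for IGTP and 1.30 for TGTP1 (exact p = 0.0179 each, the smallest that 5 against 3 can give).

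The members' shares show the same differences. IRGM1 made up 32.1% ± 1.9 (SD, n = 3) of the summed scaled FPKM of the 6 in sorted controls, and 18.2% ± 1.6 and 23.0% ± 2.1 in cells labelled sh-B7-H3 (1) and (2). The share of IRGM2 was 7.33% ± 0.66 in controls, then 4.82% ± 0.63 and 4.82% ± 0.54. TGTP1 took 13.2% ± 1.3 in controls, then 21.3% ± 1.6 and 20.5% ± 1.5, while IIGP1 held 25.4% ± 1.5, 26.2% ± 0.60 and 21.8% ± 1.3. The member with the highest mean was IIGP1 under sh-B7-H3 (1), at 336 ± 147 scaled FPKM against 228 ± 79 for IRGM1, and IRGM1 under sh-B7-H3 (2), at 208 ± 27 against 200.3 ± 49 for IIGP1, and in both cases these spreads overlap.

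**Figure D3:**
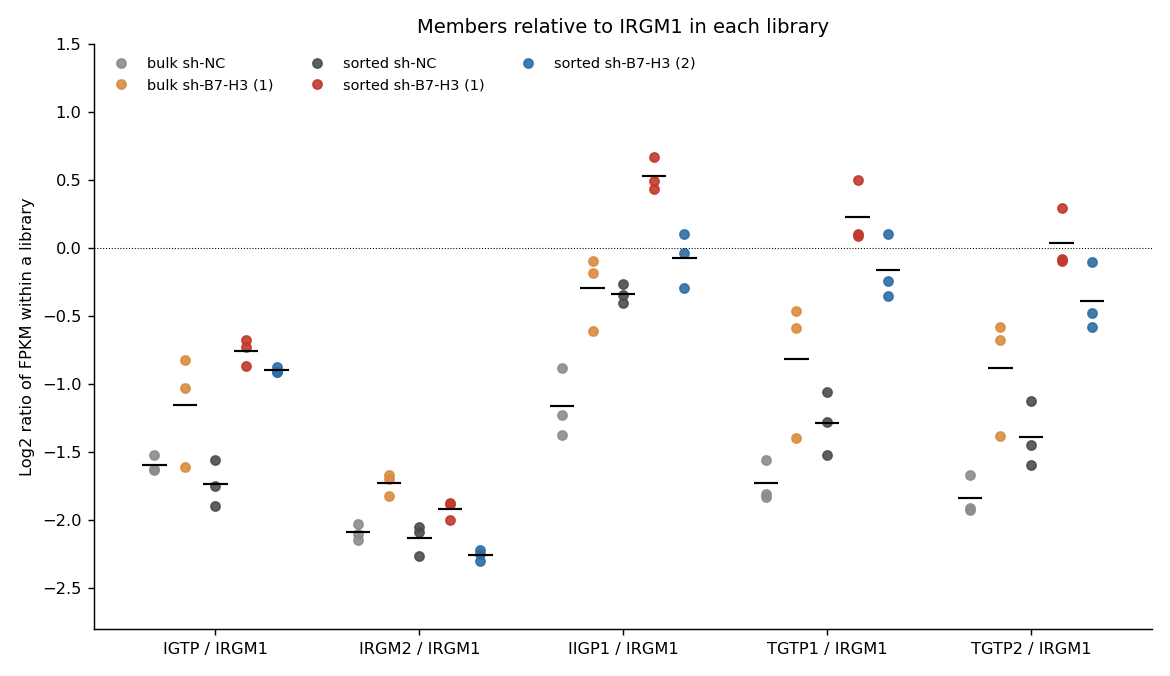
Log2 ratio of the FPKM of 5 members to that of IRGM1 within each library, with points for libraries, color for the group and a black line at the group mean. IGTP, TGTP1 and TGTP2 gained on IRGM1 in all sorted knockdown libraries, and the IRGM2 ratio of sorted knockdown libraries spans that of the sorted controls.

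In bulk tumors the members were compared between sh-B7-H3 (1) and sh-NC to see the whole tissue, in which fewer cells of a type and less RNA per cell cannot be told apart. IIGP1 measured 34.0, 23.6 and 19.9 scaled FPKM in sh-NC tumors and 111, 118 and 40.1 in tumors labelled sh-B7-H3 (1). IRGM2 measured 15.4, 12.9 and 11.7 against 36.7, 42.2 and 17.4, and TGTP2 measured 19.6, 14.7 and 13.5 against 74.4, 89.9 and 23.6. These 3 members passed the test, with log2 differences of 1.65 ± 0.42 (SE, adjusted p = 0.0349), 1.13 ± 0.31 (adjusted p = 0.0432) and 1.72 ± 0.47 (adjusted p = 0.0419), and every knockdown tumor lay above every control, as was so for 24.4% of the genes tested.

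The other 3 members were higher on average without passing. IGTP measured 21.8, 17.8 and 16.7 against 58.1, 76.1 and 20.1 (1.22 ± 0.44, adjusted p = 0.0885), and its groups overlapped through replicate 3. IRGM1 measured 62.5, 55.2 and 51.5 against 119, 135 and 61.4 (0.81 ± 0.28, adjusted p = 0.0775), and overlapped in the same way. TGTP1 measured 21.3, 15.8 and 14.5 against 78.9, 97.4 and 23.3 without overlap (1.68 ± 0.50, adjusted p = 0.0522), and the sum of TGTP1 and TGTP2 gave 1.73 ± 0.49 (adjusted p = 0.0462).

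Thus 3 of 6 members were called higher in bulk tumors, where 12.8% of 11800 genes were called higher, 8.52% lower and 21.4% in either direction. The 6 summed to 128 to 175 scaled FPKM in bulk controls, and to 478, 558 and 186 in replicates 1, 2 and 3 labelled sh-B7-H3 (1). Replicate 3 was thus close to the controls for every member. Without it all 6 passed, where 9.31% of genes were called higher, with IGTP at 1.78, IRGM1 at 1.15 and TGTP1 at 2.30. Without replicate 1 no member passed, and without replicate 2, 1 did. Leaving out any of the 3 control tumors, or both tumors in which MIR6236 took over 50% of the FPKM (an alternative chosen after seeing the data), also left none past the threshold. The number of all genes called also varied widely between the fits that left out 1 tumor, so these counts cannot be read as particular to the members.

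Other markers differed between these tumors too. The T-cell markers summed to 16 to 19.5 scaled FPKM in bulk sh-NC tumors and to 56.3, 46.5 and 29.2 in replicates 1, 2 and 3 labelled sh-B7-H3 (1), so that replicate 3 was lowest in both the T-cell and the IRG sums. The leukocyte sums were 315, 382 and 196 in these tumors and 208 to 297 in controls. Muscle markers summed to 1.63 to 11.1 in controls and 18.8 to 494 in the knockdown tumors, and fibroblast markers to 81.1 to 156 and 265 to 635. The part of these cells in the bulk differences was not tested.

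**Figure D4:**
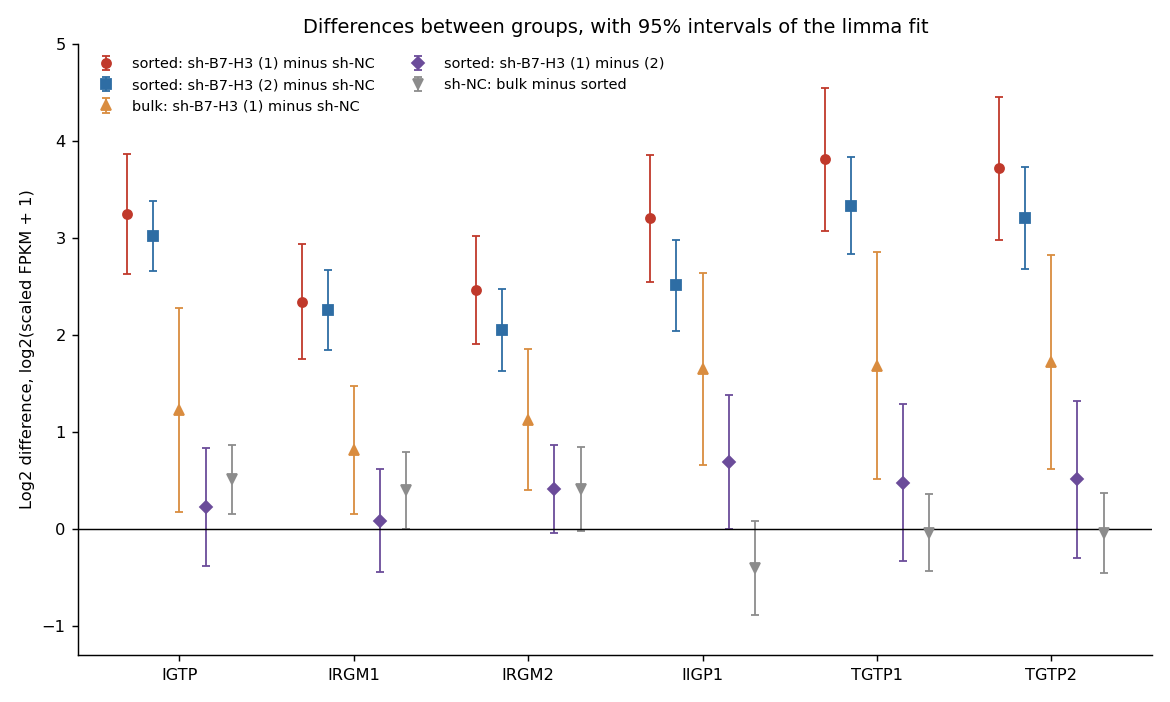
Log2 differences of the 6 members between groups, on the log2(scaled FPKM + 1) scale, with 95% intervals of the limma fit, for 5 comparisons set apart by color and symbol. The sorted knockdown differences lie between 2.05 and 3.81, the bulk differences between 0.81 and 1.72 with wider intervals, and the differences between the shRNAs and between bulk and sorted controls lie closer to 0.

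Whether sh-B7-H3 (1) had a larger effect in sorted cells than in bulk tumors was tested with an interaction term. The effect was larger in sorted cells by 1.34 (IRGM2), 1.53 (IRGM1), 1.55 (IIGP1), 2.00 (TGTP2), 2.03 (IGTP) and 2.13 (TGTP1) on the log2 scale. None of the 6 passed the adjusted threshold in limma, with adjusted p between 0.16 and 0.268, where 0.464% of 12062 genes did. An unadjusted p under 0.05 was found for 6 of 6. The share of all genes at that level is not given, so this count has no background beside it. On the FPKM as deposited 3 were called, where 1.06% of genes were, with IGTP at 2.19, TGTP1 at 2.30 and TGTP2 at 2.17. Sorting, RNA extraction and anything else that differed between the sets of libraries cannot be told apart here.

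No member was called between control tumors and sorted control cells. Bulk exceeded sorted sh-NC by 0.51 ± 0.15 for IGTP (adjusted p = 0.0587), 0.41 ± 0.19 for IRGM2 and 0.40 ± 0.17 for IRGM1. The effectors were at -0.40 ± 0.21 for IIGP1 (95% interval -0.89 to 0.08) and -0.04 for both TGTP1 and TGTP2, whose direction turns when a single library is left out. In limma 0 of 6 were called, where 16.9% of 11418 genes were. An unadjusted p under 0.05 was found for 2 of 6, and the share of all genes at that level is not given. Without sorted sh-NC replicate 1, IGTP (0.59), IRGM1 (0.56) and IRGM2 (0.58) were called higher in bulk, in a fit that called 22.2% of all genes higher. By contrast, 8 of 8 macrophage markers were called higher in bulk controls, with a median log2 difference of 4.92.

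Across all groups the order of the mean levels was alike. Each member was highest in sorted sh-B7-H3 (1), then sorted sh-B7-H3 (2), then bulk sh-B7-H3 (1), with the 2 control groups last. The 2 sorted knockdown groups overlapped for every member. Sorted sh-B7-H3 (2) did not overlap bulk sh-B7-H3 (1), except for IRGM2, and bulk sh-B7-H3 (1) overlapped the next lower control group for IGTP, IRGM1 and IIGP1. The 2 control groups overlapped for 5 members, and for IGTP bulk controls (16.7 to 21.8) lay above sorted controls (10.9 to 14.3).

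The members varied together from library to library. Over the 15 libraries the 15 pairwise Pearson correlations of log2(scaled FPKM + 1) ran from 0.961 to 1.00, with a median of 0.985, and over the 9 sorted libraries from 0.983. The libraries share groups and depth, so these values describe and do not test a relation. Among 11598 other genes whose average over the libraries reached 1 scaled FPKM, the 10 most like the mean of the 6 included GM4841, GM4951, GBP6, TNFSF10, GBP10, GM12250, GM12185, ZBP1 and GBP3, with r from 0.996 down to 0.981. GM4841, GM4951, GM12250 and GM12185 belong to the IRG family themselves. The exons of GM12185 overlap those of TGTP1 by 223 bases on the same strand. How reads that fit both were counted is not given, so the values of GM12185, here and in the list below, may not be independent of TGTP1. PTPRC, which encodes the leukocyte marker CD45, had an r of -0.12, and CD276 one of -0.53. The r of PTPRC pools bulk tumors (5.029 to 11.07 scaled FPKM) with sorted libraries. Those held 0.01677 to 0.1577, apart from sh-B7-H3 (2) replicate 1, which was above every bulk tumor. It therefore does not describe either kind of library alone. In bulk sh-B7-H3 (1) replicates 1 and 2, PTPRC was 10.1 and 11.07, with member sums of 477.9 and 558.4. In the other bulk tumors PTPRC was 5.029 to 6.364, with member sums of 127.8 to 185.9.

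The rest of the IRG family was examined in a list of 14 further genes, of which 10 were in the table and 9 could be tested in sorted cells. Counts of this list and of those below stand beside the shares of all genes called. In sorted cells with both shRNAs 12.6% were called higher and 7.92% lower, and in bulk tumors 12.8% and 8.52%. The share called higher was 9.31% without bulk sh-B7-H3 (1) replicate 3, and 10.9% in sorted cells without sh-B7-H3 (2) replicate 1. With both shRNAs 8 of 9 were called higher, with a median log2 difference of 1.41, and the exception was IRGQ at -0.02, a divergent member. GM12250, the gene of the effector Irgb10, showed the largest difference of the list, at 3.91 ± 0.29 (adjusted p = 6.16e-06). It measured 0.848, 0.368 and 0.757 scaled FPKM in sorted controls, 46.2, 16 and 21.2 with sh-B7-H3 (1), and 31.0, 18.4 and 20 with sh-B7-H3 (2). Of the 9, 4 were below 1 scaled FPKM in every control library and entered the test through the knockdown groups. In bulk tumors 5 of 8 were called higher, GM12250 among them at 1.56 ± 0.32 (adjusted p = 0.0188), against 6 of 7 without bulk sh-B7-H3 (1) replicate 3 and 2 of 7 without both MIR6236-rich tumors.

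The GBP genes, whose proteins act at the same vacuoles, rose with the IRG genes. In sorted cells 9 of 11 could be tested and 9 were called higher, from 1.72 for GBP8 to 3.31 for GBP2, with a median of 2.57, and 6 of the 9 were below 1 in every control. In bulk tumors 3 of 6 were called, GBP2 at 1.49, GBP5 at 1.19 and GBP7 at 1.00, against 6 of 6 without bulk sh-B7-H3 (1) replicate 3 and 0 of 6 without both MIR6236-rich tumors. Without sorted sh-B7-H3 (2) replicate 1 the sorted counts were 8 of 9 other IRG genes and 9 of 9 GBP genes.

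The IFN-γ signaling genes upstream of the family split. In sorted cells 4 of 9 tested were called higher, among them IRF1 (2.87 ± 0.21), SOCS1, a feedback inhibitor (1.52 ± 0.19), and the receptor chain IFNGR2 (0.43 ± 0.09). JAK1, a receptor kinase, was called lower (-0.44 ± 0.14, adjusted p = 0.0477), a call that was lost without sorted sh-B7-H3 (2) replicate 1 and was not made with either shRNA alone. IFNG itself was listed at 0 in 8 of the 9 sorted libraries and at 0.724 scaled FPKM in that replicate. In bulk tumors IRF1 (1.38 ± 0.29), JAK2 (0.71 ± 0.14) and IFNGR2 (0.40 ± 0.10) were called higher.

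Type I interferon genes were in part higher in sorted cells, where 10 of 15 antiviral genes were called higher, from 0.62 for IFIT1 to 2.16 for OASL2, with a list median of 0.90, and 4 of 7 signaling genes were, IRF7, IRF9, STAT2 and USP18. With sh-B7-H3 (1) alone 1 of these 7, IRF7, was called higher, where 9.03% of all genes were. With sh-B7-H3 (2) alone 4 were, against 11.7% of all genes. In bulk tumors 1 of 15 antiviral genes, OASL2 at 1.00, and 0 of 7 signaling genes passed in limma, where 12.8% of 11800 genes were called higher. IRF9, 1 of the 7, had an unadjusted p under 0.05, and the antiviral median was -0.02. The difference between the lists was not tested. Of the 15 antiviral genes, 2, MX1 and OAS2, were below 1 scaled FPKM in every sorted control library and entered the sorted test through the knockdown groups.

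Among the machinery that places IRG proteins, ATG8 conjugation genes were not called higher in the main fits against sh-NC, and ubiquitin genes went both ways. Of 10 ATG8 conjugation genes, which include ATG5, ATG7 and the ATG8 proteins themselves, 0 were called by limma in sorted cells with both shRNAs (1 of 10, ATG7, at an unadjusted p under 0.05), with a median of -0.17 and a range of -0.41 to 0.13. With sh-B7-H3 (2) alone GABARAPL1 was called lower, at -0.82 (adjusted p = 0.0252). In bulk tumors ATG7 (-0.38 ± 0.09), MAP1LC3B (-0.30 ± 0.09) and GABARAPL2 (-0.62 ± 0.12) were called lower, against 1 of 10 without bulk sh-B7-H3 (1) replicate 3. Without both MIR6236-rich tumors 3 of 10 were called lower and 1 higher. Of 4 genes of ubiquitin marking at the vacuole, the ligases RNF213 (1.28 ± 0.33) and TRIM21 (0.76 ± 0.14) were called higher in sorted cells, the adaptor SQSTM1 lower (-0.61 ± 0.16), and TRAF6 was at -0.0027. With sh-B7-H3 (1) alone only TRIM21 of the 4 was called, and RNF213 was at 0.90 (adjusted p = 0.147) and SQSTM1 at -0.42 (adjusted p = 0.221). With sh-B7-H3 (2) alone RNF213, TRIM21 and SQSTM1 were called. In bulk tumors RNF213 was called higher (0.91 ± 0.18, adjusted p = 0.0181) and SQSTM1 lower (-0.87 ± 0.14, adjusted p = 0.00845).

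**Figure D5:**
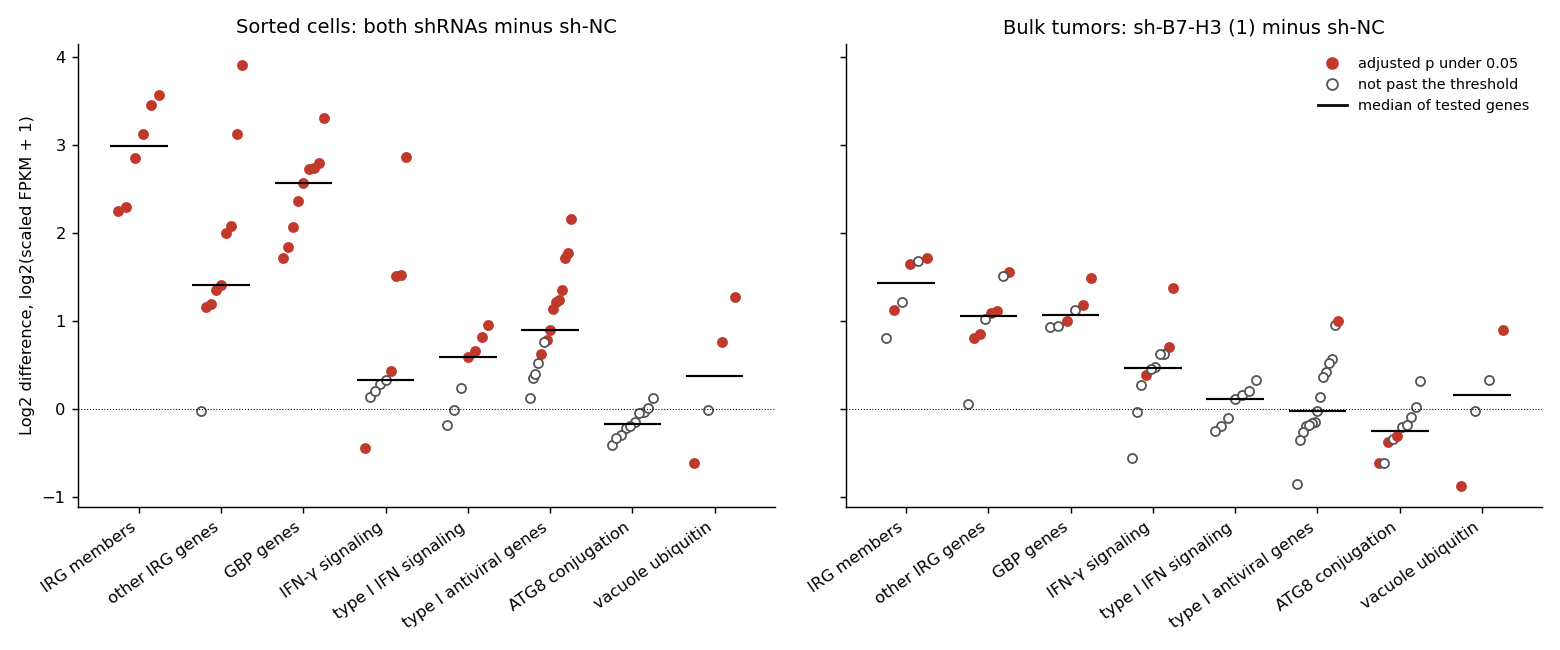
Log2 difference of each tested gene of 8 lists in sorted cells with both shRNAs (left) and in bulk tumors (right), with filled points for adjusted p under 0.05 and a line at the median of the tested genes. In sorted cells the medians are 2.99 for the 6 members, 1.41 for other IRG genes, 2.57 for GBP genes and -0.17 for ATG8 conjugation genes.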

How the data were processed

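The study's methods describe oligo-dT capture, the KAPA mRNA HyperPrep Kit and single-end reads, whereas the labels name Illumina Stranded mRNA Prep, so the library kit is uncertain. The deposited table held FPKM, which the authors computed for 24917 entries in 15 libraries; the submitters' processing notes name mm10, and the aligner, the annotation and the handling of reads that fit several genes are not given in the sources used here. A second deposited table held log2 values made by the authors for 1000 genes; 999 matched log2(FPKM + 1) of the first table to within 8.91e-08, and it was not used further. After 26 date-like names were dropped, 24891 genes were kept.

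FPKM were divided by median-ratio factors from 9872 genes at 1 FPKM or more in every library, and log2(scaled FPKM + 1) was tested with limma 3.58.1 (R 4.3.3, trend) on genes at 1 or more in at least 3 libraries of the comparison. Log2 differences on this scale understate changes of low genes. P-values were two-sided and Benjamini-Hochberg adjusted over all genes tested, and genes under 0.05 were called. Counts at an unadjusted p under 0.05 stand without the share of all genes at that level. FPKM carry no read counts, so depth and counting error are unknown; by the smallest steps of low values, relative depth ran from 0.468 to 1. The limma step was tested on simulated data.

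Members were taken by symbol. Genes named otherwise belong to the gene lists, to the markers, or to the 10 genes with the highest correlation to the members' mean; CD276 was included as the target, TGTP1 and TGTP2 sums as an alternative. The members and lists were chosen with earlier results of these data known. Library labels gave groups and replicate numbers. Same-numbered libraries of the sorted shRNA groups deviated together (r = 0.209, 0.229 and 0.209 for the 3 pairs), so the replicate number was treated as pairing these groups, from the data and not from a stated design. Promoter letters were read from RefSeq windows of GRCm38.p6, and shared 75-base stretches from GENCODE M21 transcripts. One gene that the naming rule covers is not reported here.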

Additional observations from a re-analysis of the deposited data

Results flagged for a closer look

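Sorted sh-B7-H3 (2) replicate 1 was an extreme value, by Dixon's criterion, among the 6 sorted knockdown libraries in 7 of 22 series of values, which chance exceeds in about 5% of groups. No member of the IRG family did. Its leukocyte markers summed to 229.0 scaled FPKM (others 17.9 to 26.4), macrophage markers to 782.1 (62.9 to 98.1) and T-cell markers to 29.14 (1.67 to 2.40). Cytotoxic markers summed to 18.7 (0.0682 to 0.336), B-cell markers to 10.81 (0 to 0.817), dendritic-cell markers to 6.579 (1.11 to 1.68) and endothelial markers to 18.25 (0.520 to 0.663). These series come from 1 library and are not independent of each other.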

How the results depend on the processing

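The FPKM carry no counts, so precision rests on 3 libraries a group. All 6 members stayed called against sorted sh-NC with each shRNA and with both in every alternative; bulk calls did not. Over all members and comparisons, 542 log2 differences kept direction and side of the threshold, 20 lost and 17 gained a call, and 11 reversed. The causes were not tested.

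With the replicate number as a block, genes called went from 1497 to 915 for sorted sh-B7-H3 (1), from 2150 to 1395 for sh-B7-H3 (2), from 382 to 1864 between the shRNAs (members from 0 to 2), from 2520 to 1413 in bulk and from 56 to 1 for the interaction, and 1 member (IGTP) was called between controls. Only the sorted shRNA groups were taken as paired. In the other pairs of groups, r between same-numbered libraries ran from -0.463 to 0.443.

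On FPKM as deposited, 961 genes and 5 members were called in bulk, 128 genes and 3 members for the interaction and 652 genes between controls, where 1924 were called otherwise. That scale moved the median of all genes by 0.17 (sh-B7-H3 (1)), 0.21 (sh-B7-H3 (2)), 0.20 (both) and 0.13 (interaction). The share of calls that were higher was 67.3% for sh-B7-H3 (1) (84.2% as deposited, 56% with quantile normalization), 61.1% for sh-B7-H3 (2) (83.2%, 48.4%), 61.4% for both (86.4%, 48.8%), 60.1% in bulk (70.2%, 45.7%), 53.6% for the interaction (67.2%, 64.3%) and 61.5% between controls (79.8%, 41.9%). With no filter 137 genes were called between the shRNAs and 0 members in bulk. A pseudocount of 0.1 left 25 interaction calls. A fit of all 5 groups called 5 members in bulk, 36 genes for the interaction and 3082 between controls. Without MIR6236-rich libraries, chosen after seeing the data, 0 members were called in bulk, 8 genes for the interaction and 86 between controls. Quantile normalization turned IRGM1 between the shRNAs to -0.0476.

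Leaving out 1 library at a time gave 722 to 1948 calls for sh-B7-H3 (1), 962 to 3614 for sh-B7-H3 (2), 1414 to 2584 for both, 35 to 890 between the shRNAs, 546 to 3793 in bulk (members 0 to 6), 12 to 72 for the interaction and 139 to 4436 between controls (members 0 to 3). The lowest and highest came without sorted sh-B7-H3 (1) replicate 1 and sorted sh-NC replicate 1 for sh-B7-H3 (1), and without sorted sh-B7-H3 (2) replicate 3 and sorted sh-NC replicate 1 for sh-B7-H3 (2). Between the shRNAs IGTP ran from -0.0742 to 0.479 and IRGM1 from -0.179 to 0.280. Between controls TGTP1 ran from -0.193 to 0.0690 and TGTP2 from -0.190 to 0.0627.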
